A study of Homo sapiens with 3 samples.

Results

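The genes described here are 40 genes of the NRF2 pathway and of the cell's defence against oxidants, out of 23595 genes named on the arrays. They were listed by symbol and matched to the transcripts of the array files by Entrez gene number, and all 40 were found, with 77 transcripts in all (OSGIN1 stands under its earlier symbol OKL38). They were measured in HaCaT cells, a human keratinocyte line that became immortal spontaneously in culture, on 3 single-colour NimbleGen arrays. One array each held RNA of cells given 1 µM all-trans retinoic acid (ATRA, the active form of vitamin A) together with nicotinamide (the amide form of vitamin B3; ATRA+NIC), of cells given 1 µM ATRA alone, and of untreated control cells, after 36 h. The labels used here name no nicotinamide dose, and no array held cells given nicotinamide alone. There were no replicates, so no test between groups was possible, array and treatment cannot be told apart, and every difference below describes these 3 arrays.

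NRF2, encoded by NFE2L2, is a transcription factor that the adaptor protein KEAP1 binds and delivers to a CUL3 ubiquitin ligase for degradation. When oxidants or electrophiles modify cysteines of KEAP1, NRF2 accumulates, pairs with a small MAF protein such as MAFG and binds antioxidant response elements (ARE) in the promoters and enhancers of its target genes. The targets make glutathione, reduce thioredoxin, supply NADPH and convert reactive quinones and carbonyls, and in skin the pathway is known for its role in protection against ultraviolet light and chemical stress.

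A gene's level was the mean of the log2 intensities of its transcripts, and intensities printed for a gene are that mean on the linear scale. A gene passed the filter on low values when its level reached a log2 value of 7.95 on at least 1 array. Of the 40 members 36 passed, all of them on each of the 3 arrays, and AKR1B10, GSTA4, MGST1 and GPX3 lay under the filter on every array. A member was called different at 2-fold or more on the gene level. Between transcripts of the same member, of which 24 of the 36 had more than 1, the log2 differences had a pooled SD of 0.24 for ATRA against control, 0.19 for ATRA+NIC against ATRA and 0.15 for ATRA+NIC against control. This is scatter within an array pair and not an error between cultures.

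**Figure D1:**
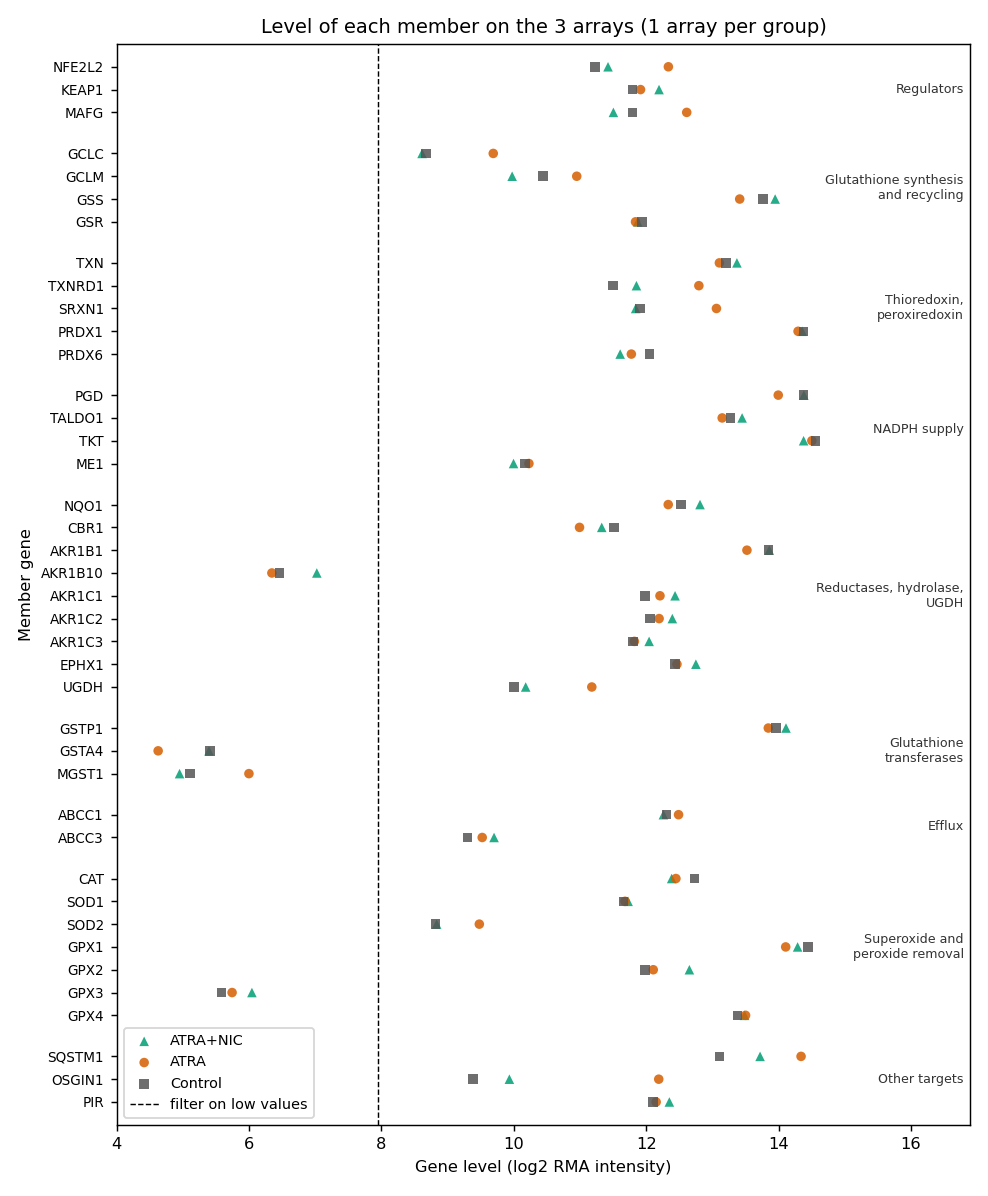
Level of each of the 40 members (rows, grouped by role) as log2 RMA intensity on the ATRA+NIC (triangles), ATRA (circles) and control (squares) array, 1 array per group; the dashed line is the filter at 7.95. For OSGIN1, SRXN1, TXNRD1, UGDH, GCLC and NFE2L2 the ATRA symbol stands clear to the right of the other two, while 4 members lie left of the filter on all arrays.

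A small set of the members was high on the ATRA array and a larger set differed little, with no clear break between them. For ATRA against control GCLM, SOD2 and MAFG lay in between, at log2 differences of 0.51, 0.66 and 0.82. Against control, 7 of 36 members were at least 2-fold higher on the ATRA array, OSGIN1, TXNRD1, SQSTM1, UGDH, SRXN1, NFE2L2 and GCLC, and 0 were 2-fold lower, beside 3.83% and 2.06% of the 12467 genes that passed the filter. Against ATRA, 4 of 36 were at least 2-fold lower on the ATRA+NIC array, OSGIN1, SRXN1, MAFG and GCLC, and 0 were 2-fold higher, beside 3.74% and 1.35% of all genes. These comparisons share the ATRA array, so a gene high on that array differs in both. On the ATRA+NIC array against control 0 members reached 2-fold in either direction, beside 1.03% of all genes higher and 0.971% lower. The median difference of the 36 members was 0.05 for ATRA against control, 0.05 for ATRA+NIC against ATRA and 0.13 for ATRA+NIC against control, in log2 units, and that of all genes −0.04, 0.05 and −0.01. With 1 array a group these counts have no test.

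**Figure D2:**
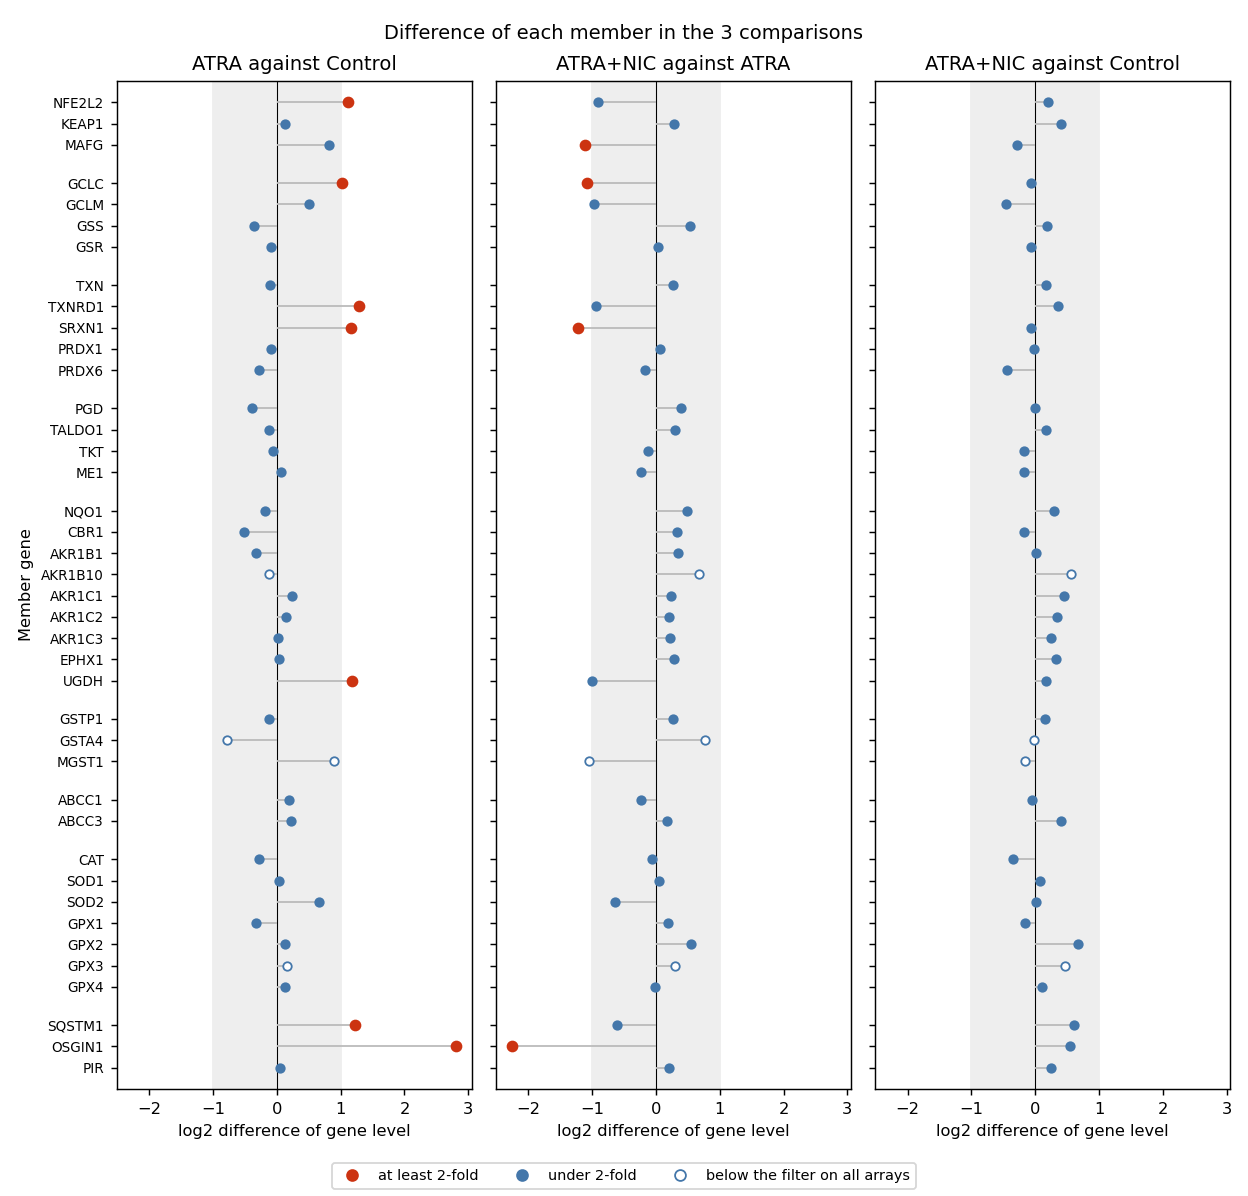
Difference of gene level (log2) of each member for ATRA against control, ATRA+NIC against ATRA and ATRA+NIC against control; the grey band marks differences under 2-fold, and open circles are members below the filter on all arrays. Red points outside the band number 7, 4 and 0, and lie to the right in the first panel and to the left in the second.

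**Figure D3:**
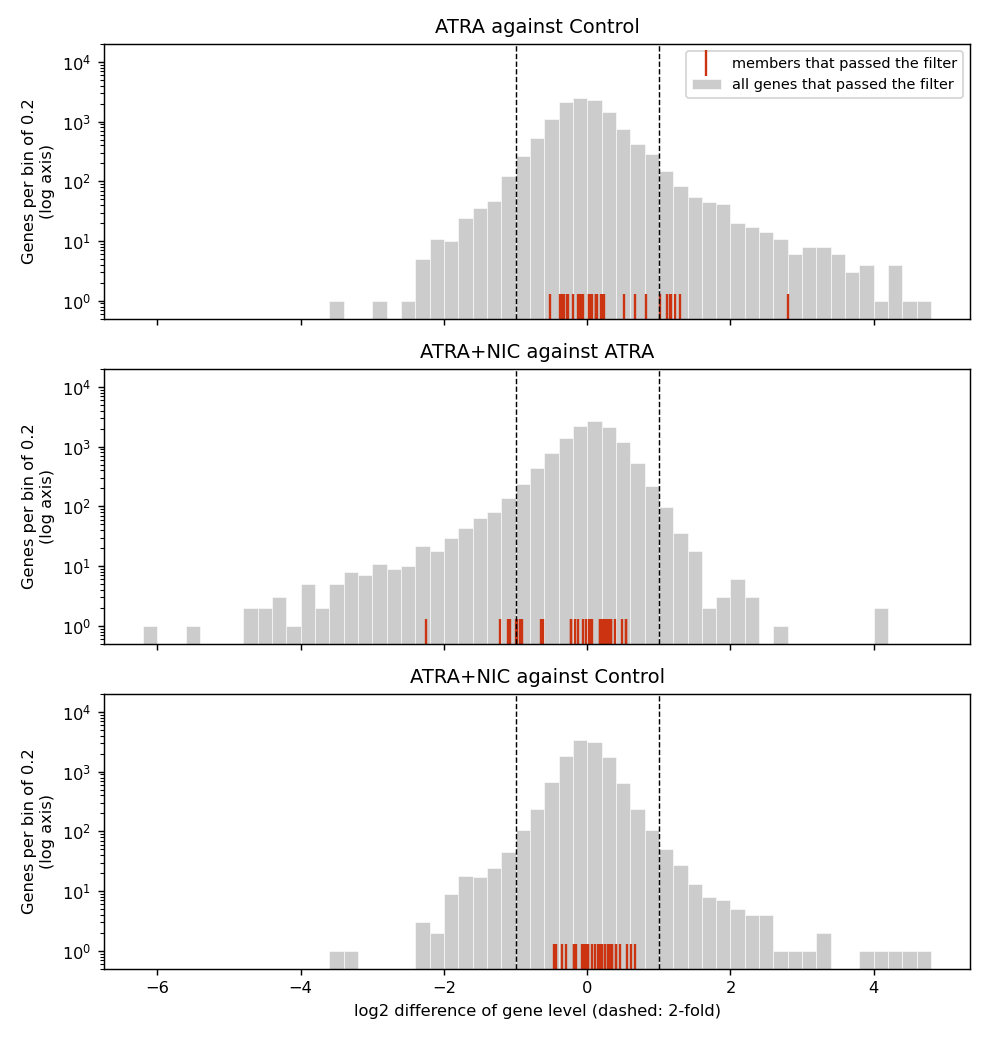
Number of genes per bin of the log2 difference (log axis) for all 12467 genes that passed the filter, in the 3 comparisons, with the 36 members as red ticks and 2-fold marked by dashed lines. Most member ticks lie in the central bins, and OSGIN1 is the tick at 2.81 in the first panel and at −2.26 in the second.

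To see whether the members that were high on the ATRA array share an ARE near their start, promoter windows of RefSeq (GRCh38.p14, bases from 250 before to 50 after each annotated start) were searched for the ARE core in its forms TGACNNNGC and TGAGNNNGC, on both strands. The table matched 32 members with 48 windows. Sequences of 5 members are printed here, 5′ to 3′ along the gene, with matches to the ARE core in capitals. TXNRD1, OSGIN1 and NFE2L2 were 2-fold higher on the ATRA array, whereas NQO1 and GCLM, both textbook NRF2 targets, were not.
TXNRD1, first window (chr12:104215529-104215828, plus strand): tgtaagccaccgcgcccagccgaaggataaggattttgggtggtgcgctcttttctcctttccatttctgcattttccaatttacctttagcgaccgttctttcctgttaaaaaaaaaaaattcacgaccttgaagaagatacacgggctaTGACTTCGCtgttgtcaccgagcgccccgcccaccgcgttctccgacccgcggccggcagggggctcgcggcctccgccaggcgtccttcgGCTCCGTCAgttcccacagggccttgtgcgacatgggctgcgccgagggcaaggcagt
TXNRD1, second window (chr12:104286782-104287081, plus strand): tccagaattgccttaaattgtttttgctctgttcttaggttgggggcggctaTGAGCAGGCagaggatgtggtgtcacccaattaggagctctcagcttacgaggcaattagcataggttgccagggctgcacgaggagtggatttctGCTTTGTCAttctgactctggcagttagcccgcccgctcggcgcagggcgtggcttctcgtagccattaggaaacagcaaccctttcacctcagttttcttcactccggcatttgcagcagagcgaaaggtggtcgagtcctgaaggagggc
OSGIN1 (chr16:83952990-83953289, plus strand): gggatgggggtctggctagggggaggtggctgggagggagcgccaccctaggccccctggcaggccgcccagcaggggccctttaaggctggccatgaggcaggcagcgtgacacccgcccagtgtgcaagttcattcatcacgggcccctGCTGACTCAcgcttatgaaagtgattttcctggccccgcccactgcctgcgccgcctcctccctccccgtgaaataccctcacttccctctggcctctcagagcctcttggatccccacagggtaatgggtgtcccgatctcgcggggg
NFE2L2 (chr2:177264082-177264381, minus strand): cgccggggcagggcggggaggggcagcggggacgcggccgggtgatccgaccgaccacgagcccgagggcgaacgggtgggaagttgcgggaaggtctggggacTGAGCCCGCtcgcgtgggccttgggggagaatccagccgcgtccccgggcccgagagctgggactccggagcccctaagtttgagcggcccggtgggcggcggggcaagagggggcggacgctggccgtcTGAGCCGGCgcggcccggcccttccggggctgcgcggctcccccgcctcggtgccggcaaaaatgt
NQO1 (chr16:69726511-69726810, minus strand): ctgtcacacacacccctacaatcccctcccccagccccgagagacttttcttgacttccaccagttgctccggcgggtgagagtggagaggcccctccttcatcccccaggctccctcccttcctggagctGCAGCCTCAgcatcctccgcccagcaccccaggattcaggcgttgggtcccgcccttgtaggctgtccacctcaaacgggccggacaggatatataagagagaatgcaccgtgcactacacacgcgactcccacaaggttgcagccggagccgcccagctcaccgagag
GCLM (chr1:93909381-93909680, minus strand): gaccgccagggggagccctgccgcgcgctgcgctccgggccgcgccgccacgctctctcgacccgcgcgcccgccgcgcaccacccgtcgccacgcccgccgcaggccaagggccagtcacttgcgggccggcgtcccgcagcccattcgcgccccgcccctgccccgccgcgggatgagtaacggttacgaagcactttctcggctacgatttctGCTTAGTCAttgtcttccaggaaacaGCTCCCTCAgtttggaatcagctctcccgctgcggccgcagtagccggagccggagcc

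In the OSGIN1 window the match spans positions −99 to −91 from the start and overlaps the AP-1 motif TGACTCA, the binding sequence of FOS and JUN dimers, at −97 to −91. NFE2L2 has a second window (chr2:177264678-177264977), not printed, with no match. A window of TXNRD1 holds matches at −99 to −91 and at −8 to 0, and its other window holds them at −198 to −190 and −102 to −94. The core was present in at least 1 window of 20 of the 32 members (62.5%), while 33.7% of the 27305 genes in the table had it. The members were listed as genes of this pathway, so a higher share is partly built into the list. Among the 8 members called in a comparison it was found in 5 (NFE2L2, TXNRD1, UGDH, SQSTM1 and OSGIN1), and among the other 24 members in 15, NQO1, GCLM, AKR1C1, AKR1C2, GSTP1 and KEAP1 included. These shares are the same, so the core did not set the called members apart. By window, 45.8% of the members' windows and 29.1% of all windows held it. The AP-1 motif, searched on both strands, was found in 4 members, OSGIN1, GSTP1, ME1 and PIR, in each case overlapping an ARE core, and in 6.05% of all genes. The windows cover only bases near the start, and a match describes letters and not a site of binding.

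**Figure D4:**
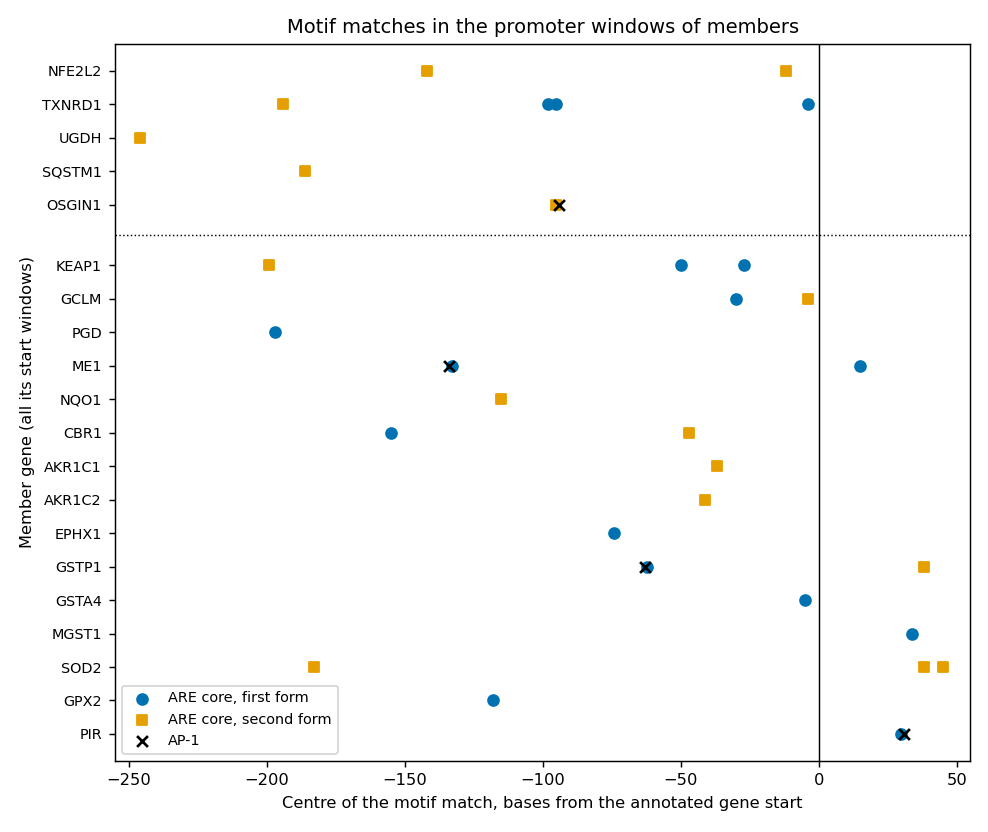
Centre of each match to the ARE core (circles, TGACNNNGC; squares, TGAGNNNGC) and to the AP-1 motif (crosses, TGACTCA) in bases from the annotated gene start, for the 20 members with a match, those called in a comparison above the dotted line. Matches occur on both sides of the dotted line, in 5 members above and 15 below.

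Among the regulators, NFE2L2 itself was high on the ATRA array. Its intensity was 2747 for ATRA+NIC, 5169 for ATRA and 2392 for control. ATRA was thus 2.16-fold higher than control, and ATRA+NIC was 1.88-fold lower than ATRA and within 1.15-fold of control. MAFG, a small MAF partner of NRF2, had intensities of 2906, 6264 and 3555 in the same order of arrays. For ATRA it was 1.76-fold higher than for control, short of the threshold, and 2.16-fold lower on the ATRA+NIC array than on the ATRA array. Both transcripts of MAFG went in the same direction each time. KEAP1, the inhibitor of NRF2, was highest on the ATRA+NIC array, at 4688 against 3861 on the ATRA array and 3546 on the control array, and none of its differences exceeded 1.32-fold. In the hg18 annotation of the array files, NFE2L2 lies on chromosome 2 at 177803281 to 177837663, MAFG on chromosome 17 at 77469437 to 77478879 and KEAP1 on chromosome 19 at 10457795 to 10474481.

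OSGIN1, which encodes an oxidative stress induced growth inhibitor, differed most among the members in both comparisons that involve the ATRA array. Its intensities were 978 for ATRA+NIC, 4673 for ATRA and 668 for control. The ATRA array was 6.99-fold above control, and the ATRA+NIC array 4.78-fold below ATRA and 1.46-fold above control. Both of its transcripts, on chromosome 16 at 82540172 to 82557437 (hg18), followed this order, with 1072 and 892 for ATRA+NIC, 4844 and 4508 for ATRA and 724 and 617 for control. SQSTM1, which encodes p62, a receptor of selective autophagy that binds KEAP1, lies on chromosome 5 at 179166006 to 179197684. Its intensities were 13506, 20745 and 8836 on the ATRA+NIC, ATRA and control arrays, so the ATRA+NIC array lay between the other two, 1.54-fold below ATRA and 1.53-fold above control. The 2.35-fold difference between ATRA and control rested on its dimmer transcript (log2 difference 1.68). The brighter one differed by 0.79 and had an intensity of 46142 on the ATRA array, where the highest transcript of the array stood at 52595. PIR, which encodes the iron-binding nuclear protein pirin, differed by 1.19-fold at most, with 5222, 4548 and 4401.

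The glutathione genes did not all differ in the same direction. GCLC and GCLM encode the catalytic and modifier subunits of glutamate-cysteine ligase, the first and rate-limiting enzyme of glutathione synthesis, and both were highest on the ATRA array. GCLC (chromosome 6, 53470097 to 53517790) had 392 for ATRA+NIC, 826 for ATRA and 409 for control, 2.02-fold above control for ATRA and 2.11-fold below ATRA for ATRA+NIC. Its transcripts differed by 0.71 and 1.32 between ATRA and control, and with the brighter transcript alone GCLC was no longer 2-fold different in either comparison. GCLM had 1006, 1980 and 1390, so ATRA was 1.42-fold above control, while ATRA+NIC was 1.97-fold below ATRA and 1.38-fold below control. GSS, glutathione synthetase, which carries out the second step, went the other way, with 15815, 10910 and 13920, lowest on the ATRA array. For ATRA against control the GSS difference was 1.28-fold, read by 1 transcript. GSR, which reduces oxidised glutathione, had 3745, 3664 and 3923, and its transcripts differed in sign between ATRA and control. Among members that passed the filter, so did those of TXN, TALDO1, ME1, AKR1C1, ABCC1, GPX4 and PIR.

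In the thioredoxin system the reductase and sulfiredoxin were high on the ATRA array and the proteins they act on were not. TXNRD1, thioredoxin reductase 1, a selenoprotein encoded on chromosome 12 at 103204856 to 103268192, had intensities of 3699, 7113 and 2901 on the ATRA+NIC, ATRA and control arrays. It was 2.45-fold higher for ATRA than for control and 1.92-fold lower for ATRA+NIC than for ATRA, leaving ATRA+NIC 1.28-fold above control. SRXN1, sulfiredoxin, which repairs overoxidised peroxiredoxins and lies on chromosome 20 at 575258 to 581890, had 3670, 8551 and 3831. That is 2.23-fold higher for ATRA than for control and 2.33-fold lower for ATRA+NIC than for ATRA, with ATRA+NIC within 1.04-fold of control. TXN, thioredoxin, at 10596, 8819 and 9452, and PRDX1, peroxiredoxin 1, at 20991, 20105 and 21316, differed by no more than 1.20-fold and 1.06-fold. PRDX6, a peroxiredoxin that uses glutathione, was lowest on the ATRA+NIC array, with 3120 against 3507 for ATRA and 4238 for control. NFE2L2, TXNRD1 and SRXN1 were each read by 1 transcript, so no second transcript bears on their differences.

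**Figure D5:**
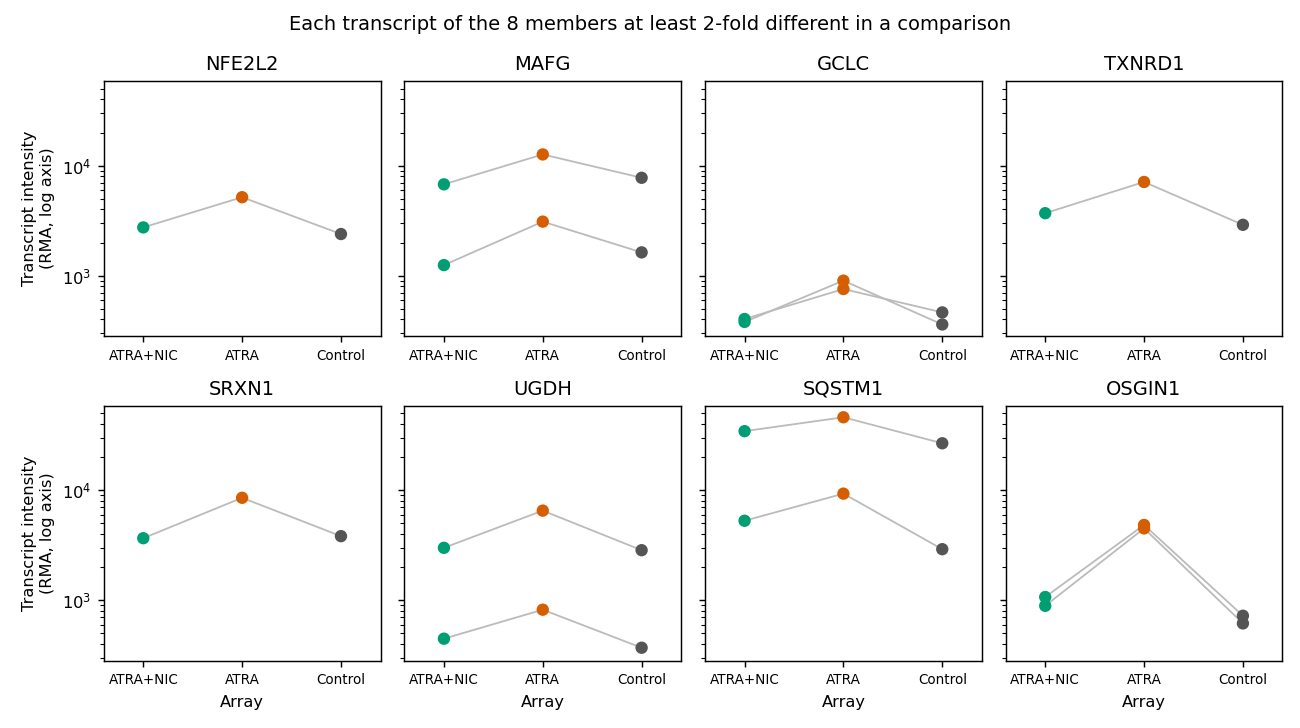
Intensity (RMA, log axis) of every transcript of the 8 members that were at least 2-fold different in a comparison, on the ATRA+NIC, ATRA and control arrays, with a line joining each transcript. All 13 transcripts are highest on the ATRA array, and the transcripts of GCLC cross between arrays.

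None of the 4 genes grouped under NADPH supply and the pentose phosphate pathway reached 1.5-fold, and most genes that passed the filter did not either. Of all genes, 9.9% were 1.5-fold higher and 8.99% lower for ATRA against control. For ATRA+NIC these shares were 7.88% and 9.47% against ATRA, and 3.96% and 3.87% against control. PGD and the non-oxidative enzymes TALDO1 and TKT belong to the pentose phosphate pathway, and ME1 encodes cytosolic malic enzyme. PGD, 6-phosphogluconate dehydrogenase, had 21364 for ATRA+NIC, 16337 for ATRA and 21321 for control, 1.31-fold lower for ATRA than for control. The log2 differences of the other three lay between −0.13 and 0.06 for ATRA against control and between −0.23 and 0.30 for ATRA+NIC against ATRA.

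Of the 9 reductases and related enzymes, 8 passed the filter and 1 was at least 2-fold higher for ATRA than for control, beside 3.83% of all genes. UGDH, which makes UDP-glucuronate, the donor for glucuronide conjugation and hyaluronan, is on chromosome 4 at 39176769 to 39205606. Its intensities were 1160, 2318 and 1029 on the ATRA+NIC, ATRA and control arrays, 2.25-fold higher for ATRA than for control, and 1.20 and 1.15 on the log2 scale in its 2 transcripts. ATRA+NIC against ATRA, at −0.9991 on the log2 scale, was just short of 2-fold and not called. NQO1, the NAD(P)H quinone oxidoreductase commonly used as a marker of NRF2 activity, was lowest on the ATRA array, with 7200, 5161 and 5897, and both of its transcripts were lower for ATRA than for control. ATRA+NIC was 1.40-fold above ATRA and 1.22-fold above control for NQO1. CBR1, carbonyl reductase 1, and AKR1B1, aldose reductase, were also lowest on the ATRA array, by 1.43-fold and 1.25-fold against control. The CBR1 difference rested mainly on its brighter transcript (−0.86 on the log2 scale, and −0.17 in the other), and AKR1B1 was read by 1 transcript.

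AKR1C1, AKR1C2 and AKR1C3, aldo-keto reductases of steroids and carbonyls, and EPHX1, microsomal epoxide hydrolase, were all highest on the ATRA+NIC array. AKR1C1 had 5544, 4734 and 4037, AKR1C2 5388, 4691 and 4253, AKR1C3 4225, 3621 and 3572, and EPHX1 6894, 5654 and 5527. Against control these ATRA+NIC values were 1.37-fold, 1.27-fold, 1.18-fold and 1.25-fold higher, sizes that have no replicate error to be set against. AKR1C1 and AKR1C2 are near-identical in sequence, so their probes may read both and their values are not separate evidence. AKR1B10 lay under the filter with 130, 81.3 and 88.1. In all, 16 of 36 members (44.4%) had their highest level on the ATRA+NIC array and 13 (36.1%) on the ATRA array, beside 32.8% and 33.4% of all genes that passed.

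None of the 6 genes of superoxide and peroxide removal that passed the filter reached 2-fold. Of all genes, 3.83% were 2-fold higher and 2.06% lower for ATRA against control, so most genes did not reach it either. SOD2, the mitochondrial manganese superoxide dismutase, had 456, 714 and 451 on the ATRA+NIC, ATRA and control arrays, 1.58-fold higher for ATRA than for control and 1.56-fold lower for ATRA+NIC than for ATRA, with the same direction in all 3 of its transcripts. SOD1, the cytosolic enzyme, had 3391, 3282 and 3224. CAT, catalase, was 1.22-fold and GPX1, glutathione peroxidase 1, 1.26-fold lower for ATRA than for control. GPX2, an epithelial glutathione peroxidase, had 6441, 4412 and 4041 and was the member with the largest difference between ATRA+NIC and control, 1.59-fold higher. GPX4, which reduces lipid hydroperoxides, differed by 1.09-fold at most. GPX3, the secreted plasma enzyme, lay under the filter, at low intensities of 65.9, 53.6 and 47.8.

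GSTP1, the main glutathione transferase of keratinocytes, had 17717, 14721 and 16002, and differed by 1.20-fold at most. GSTA4, which conjugates the lipid peroxidation product hydroxynonenal, and MGST1, a microsomal glutathione transferase, had gene intensities between 24.7 and 63.9. That is above the 18.4 to 19.6 of the random probes but under the filter on every array, so no fold is given. All 3 transcripts of MGST1 were highest on the ATRA array, and the gene level of GSTA4 was lowest there. Of the efflux pumps for glutathione conjugates, ABCC1 had 4905, 5751 and 5057 and ABCC3 833, 736 and 631. Neither reached 1.5-fold.

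At a smaller size, 1.5-fold, 9 of 36 members were higher and 0 lower for ATRA than for control, where all genes gave 9.9% and 8.99%. For ATRA+NIC against ATRA, 10 were lower and 0 higher, beside 9.47% and 7.88%. For ATRA+NIC against control, 2 were higher, SQSTM1 and GPX2, and 0 lower, beside 3.96% and 3.87%. Around the 2-fold limit for ATRA against control, GCLC at 1.01 and NFE2L2 at 1.11 on the log2 scale stood just inside. Of the members that passed the filter, the nearest outside were MAFG at 0.82 and SOD2 at 0.66.

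A further 79 genes of the pathway or related to it were listed by symbol, of which 77 were measured and 63 passed the filter. The list was made with earlier results of these data known, so its counts are not independent of them. For ATRA against control 7 were at least 2-fold higher and 0 lower, HMOX1, MAFF, CHAC1, SESN2, GLRX, RIT1 and SLC7A11, beside 3.83% and 2.06% of all genes. Their list median was 0.00. HMOX1, heme oxygenase 1, had 149 for ATRA+NIC, 10039 for ATRA and 551 for control. It was the only one of the 63 called in ATRA+NIC against control, 3.69-fold lower, in both transcripts, beside 0.971% of all genes lower. MAFF, another small MAF, had 878, 7625 and 1439, 5.30-fold higher for ATRA than for control and 8.68-fold lower for ATRA+NIC than for ATRA. SLC7A11, the cystine transporter that feeds glutathione synthesis, had 1031, 2721 and 1336, and CHAC1, which degrades glutathione, 2636, 14628 and 2840. SESN2, sestrin 2, had 937, 3826 and 1019. For ATRA+NIC against ATRA 6 were at least 2-fold lower and 0 higher, beside 3.74% and 1.35% of all genes. They were HMOX1, MAFF, CHAC1, SESN2, SLC7A11 and SELENOS, a selenoprotein of the endoplasmic reticulum at 1451, 2906 and 1511. GLRX, glutaredoxin, with 243, 427 and 176, passed the filter only through the ATRA array. It therefore had to be highest there, though not by any set size.

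All 12 keratinocyte markers passed the filter, with summed intensities of 108018 for ATRA+NIC, 126920 for ATRA and 152222 for control. For ATRA against control 5 of the 12 were higher and 7 lower, and KRT5 had the largest fall in intensity. KRT5, a basal keratin, had 10009, 10041 and 29746, which is 2.97-fold lower for ATRA+NIC and 2.96-fold lower for ATRA than for control. KRT17 was 2.02-fold higher for ATRA than for control, and TP63 and DSG3 were 2.70-fold and 2.54-fold lower for ATRA+NIC than for ATRA. Leukocyte markers were higher on the ATRA array than on the control array in 5 of 6 genes, with summed intensities of 2958 for ATRA+NIC, 4777 for ATRA and 2484 for control, most of it CD68. CD3E had 70.6, 500.5 and 250.6, and was 7.09-fold lower for ATRA+NIC than for ATRA and 3.55-fold lower than for control. CD79A had 110.5, 304.3 and 119, 2.56-fold higher for ATRA than for control and 2.75-fold lower for ATRA+NIC than for ATRA. It passed the filter only through the ATRA array, so it had to be highest there. Of the 6, all but LYZ were highest on the ATRA array, as the called NRF2 genes were. This was not particular to leukocyte markers. The keratinocyte markers TP63, DSG3, LAMB3 and KRT17 were also highest there, and the other keratinocyte markers were not. CD14 was only 1.04-fold lower for ATRA+NIC than for ATRA, with transcripts of mixed sign, and PTPRC lay under the filter on every array. PTPRC, the defining pan-leukocyte gene, had 18.5, 151 and 33.7, under 50 on the ATRA+NIC and control arrays. Among endothelial markers the sum was 3370, 2649 and 330, of which CDH5, a junction protein of endothelium, gave 3263, 2534 and 208.6, while 3 to 4 of the 5 lay under 50 on each array. Fibroblast sums were 556, 525 and 539, and melanocyte sums 559, 457 and 338. The part of these markers in the differences of the NRF2 genes was not tested.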

How the data were processed

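The authors deposited 1 file per array with an intensity per transcript on a linear scale. Per the file headers and names these are calls of RMA (background correction, normalization between arrays and a summary of the probe values), over 3 probes for nearly all of 45033 transcripts. No source used here names the software. The median intensity was 297.9, 302.3 and 301.5 on the ATRA+NIC, ATRA and control arrays. The precision is limited by the number of arrays. The 2086 transcripts without a gene name were left out. Gene symbols were updated by Entrez gene number through a RefSeq table (GRCh38.p14), which matched 20230 of 23619 numbers, and coordinates of genes are those of the files on hg18. No further scaling was applied. The filter was the median of all gene levels, an intensity of 246.5. With 1 array per group, a difference was called by size alone, at 2-fold.

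All members are accounted for. Members 2-fold different in any comparison are given on every array, the others by role, and other pathway genes are named where they were 2-fold different. The members and lists were chosen with earlier results of these data known. The computation of the size rule was checked on simulated levels, with differences set well past the limit and little scatter. The motif search was checked on a made-up sequence with planted sites. These checks cover the computation only and do not show how reliable calls near 2-fold are. Python 3.11.15, pandas 2.3.3 and numpy 2.4.6 were used. Alternatives were the brightest transcript of each gene, no filter or one at the 75th percentile, an offset of 100, a floor of 50, median scaling, the series value table, which holds the same intensity values of 31275 transcripts, those at 50 or more on every array, and a limit of 1.5-fold. A column headed as a standard error was not used.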

Additional observations from a re-analysis of the deposited data

How the results depend on the processing

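Every median of the members kept its sign under the alternatives tried. The counts of members called stayed within 1.5 times the reported ones except at a limit of 1.5-fold. There 10 members were lower for ATRA+NIC against ATRA, where 4 were at 2-fold, and 2 were higher for ATRA+NIC against control, where 0 were. The number at least 2-fold higher for ATRA against control lay between 5 and 7 under the other alternatives, with 5 for the brightest transcript and 6 with an offset of 100 or a filter at the 75th percentile. The 3 alternatives that move differences of the 8 called members (brightest transcript, offset and median scaling) gave 72 values, of which 65 kept their side of 2-fold, 6 no longer reached it and 1 newly reached it, and none of those called changed sign. The other 4, both filters, the floor and the value table, leave these differences as they are. With the brightest transcript, GCLC (0.71) and SQSTM1 (0.79) for ATRA against control and MAFG (−0.90) and GCLC (−0.91) for ATRA+NIC against ATRA were under 2-fold on the log2 scale, and UGDH (−1.12) for ATRA+NIC against ATRA was past it. An offset of 100 took GCLC to 0.86 and −0.91. The members' median difference from control lay between 0.06 and 0.16 on the ATRA+NIC array and between 0.03 and 0.05 on the ATRA array. That of ATRA+NIC from ATRA lay between 0.05 and 0.12. These are ranges of over 1.5 times. Each median moved by less than the SD between transcripts, but that SD is larger than the reported median in every comparison, so it is a loose limit. OSGIN1 stayed between 2.63 and 2.81 for ATRA against control. No paired analysis was possible because each group holds 1 array. Signal over background limits AKR1B10, GSTA4, MGST1 and GPX3.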

Other observations

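Genes of the wider pathway under 2-fold, chosen here after their values were seen, included several that were highest on the ATRA+NIC array. ALDH3A1, an aldehyde dehydrogenase of surface epithelia, had log2 levels of 12.16 for ATRA+NIC, 11.52 for ATRA and 11.32 for control. BLVRB, biliverdin reductase B, had 12.55, 12.19 and 11.87. The peroxiredoxin genes outside the list, PRDX2, PRDX3, PRDX4 and PRDX5, differed by −0.01, −0.29, −0.26 and −0.30 on the log2 scale for ATRA against control. BACH1, a repressor that competes with NRF2 for the ARE, lay under the filter with log2 levels of 6.62, 7.81 and 7.35.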
